A study of Mus musculus with 20 samples.

Results

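The genes described here encode the nuclear parts of the mitochondrial respiratory chain and of ATP synthase. They were chosen by symbol alone: a gene is a member if it has a probe set with a single gene symbol and that symbol starts with Nduf, Uqcr or Atp5, is Sdha, Sdhb, Sdhc or Sdhd, or starts with Cox followed by a digit from 4 to 8. The rule found 89 members among 19938 genes with such a probe set. It uses no measured values, but it was chosen with earlier results of these data known. Of the 89 members, 85 stood among the 11968 genes that passed the filter on dim probe sets and were tested, while Cox7a1, Cox7b2, Cox8b and Ndufa4l2 were too dim.

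RNA was measured on 20 arrays of purified splenic B cells from C57BL/6 mice of mixed sex, aged 8 to 12 weeks. The cells were labelled TAK1-deleted (genotype mb-1/TAK1f/f) or wild type (mb-1/TAK1+/+), and mb-1, the B lineage gene whose locus is used to drive Cre, stands in the label of both. TAK1 is the kinase, encoded by Map3k7, that carries signals from the B cell receptor towards NF-κB and the MAP kinases. B cells were enriched by removing CD43-bearing cells on magnetic beads, and were taken at 0 h without stimulus or after 1, 3, 6 or 24 h in culture with anti-IgM at 10 µg/ml, an antibody that crosslinks the B cell receptor. Each of the 10 groups had 2 arrays. Whether the 2 are separate mice or cultures is not stated, and the p-values therefore reflect only the scatter of these samples, which could be technical in origin. They also do not say whether the 0 h cells spent time in culture, so time in culture and stimulation cannot be told apart.

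The respiratory chain sits in the inner mitochondrial membrane. Complex I takes electrons from NADH and complex II takes them from succinate, complex III passes them from coenzyme Q to cytochrome c, and complex IV hands them to oxygen. Complexes I, III and IV pump protons as they do so, and ATP synthase (complex V) uses the proton gradient to make ATP. Most subunits are encoded in the nucleus and a small set in mitochondrial DNA, so a complex is built from the products of both genomes with the help of assembly factors. Resting B cells that are activated through their antigen receptor grow, and are known to raise oxygen consumption and mitochondrial content as they prepare to divide.

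Nuclear genes of the chain are known targets of the transcription factors NRF1, GABP (an ETS factor) and YY1, so the promoters of all members with a listed window, whatever their change, were searched for the letters GCGCA and GCGC with any 1 base between them (NRF1), CCGGAAG (ETS) and AAGATGGC (YY1) on both strands, in RefSeq promoter windows of the GRCm38.p6 build running from 250 bases before to 50 bases after each start. A window was listed for 73 of the 89 members, with 78 windows in all. The NRF1 letters stood in 24.4% of the member windows, against 4.6% of all 32851 windows. The ETS letters stood in 23.1% of member windows, against 8.86% of all, and the YY1 letters in 12.8%, against 2.75% of all. With the bases before the start alone the YY1 share fell to 1.3% of member windows, against 1.56% of all, so the YY1 letters lay almost wholly within the 50 bases after the start. At least 1 of the 3 motifs stood in 40 of the 73 members with a window, and in 32 of the 54 that rose in wild type cells at 24 h and had a window. The share of all windows with at least 1 motif was not counted, and these counts are not read as a link between motif and rise. A match is only a run of letters and does not show that a factor bound there. The 250 bases before the start are printed for the 4 members that were among the 12 largest rises of wild type cells at 24 h and held a motif in that stretch; 11 of the 12 had a window. Sequences run 5′ to 3′ on the gene's strand, and capitals mark the motif letters, which read CTTCCGG where the ETS motif lies on the other strand. Ndufb6 lies on the minus strand (chr4:40279422-40279671, ETS), Uqcr11 on the minus strand (chr10:80406822-80407071, ETS), Ndufaf4 on the plus strand (chr4:24897833-24898082, NRF1) and Sdhd on the minus strand (chr9:50603850-50604099, NRF1 and then ETS).
Ndufb6: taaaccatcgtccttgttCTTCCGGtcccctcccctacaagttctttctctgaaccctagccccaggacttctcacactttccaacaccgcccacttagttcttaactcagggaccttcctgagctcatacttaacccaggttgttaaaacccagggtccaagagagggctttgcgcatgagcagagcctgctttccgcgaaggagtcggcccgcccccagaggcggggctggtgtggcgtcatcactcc
Uqcr11: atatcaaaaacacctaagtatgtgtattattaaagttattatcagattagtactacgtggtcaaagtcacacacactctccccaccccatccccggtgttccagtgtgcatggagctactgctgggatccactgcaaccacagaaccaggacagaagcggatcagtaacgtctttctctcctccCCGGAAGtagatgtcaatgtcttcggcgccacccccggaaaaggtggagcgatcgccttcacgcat
Ndufaf4: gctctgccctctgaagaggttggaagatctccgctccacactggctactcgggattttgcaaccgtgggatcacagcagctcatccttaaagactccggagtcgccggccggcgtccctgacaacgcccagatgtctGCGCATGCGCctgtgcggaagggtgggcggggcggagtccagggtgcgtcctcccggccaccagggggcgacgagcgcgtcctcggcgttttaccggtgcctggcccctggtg
Sdhd: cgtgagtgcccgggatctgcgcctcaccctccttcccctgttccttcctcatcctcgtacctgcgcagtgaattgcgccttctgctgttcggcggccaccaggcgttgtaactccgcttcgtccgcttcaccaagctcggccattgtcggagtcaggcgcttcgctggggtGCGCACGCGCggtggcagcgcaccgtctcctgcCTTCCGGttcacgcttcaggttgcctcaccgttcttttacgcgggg

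The 11 of 12 B cell markers that could be tested were bright on all 20 arrays, the dimmest reading being 9.07 for Cr2 on the log2 scale, beside array medians of 7.37 to 7.52. The single probe set of Map3k7 read 10.4 to 10.76 in the samples labelled TAK1-deleted and 10.16 to 10.71 in those labelled wild type. That reading does not check the labels: probes on this platform lie along the whole transcript, and which exons were removed is not stated. At 24 h the B cell markers were lower than at 0 h, with 9 of 11 fallen in TAK1-deleted cells and 10 of 11 in wild type cells. Markers of other cells differed between the genotypes. The summed linear signal of 10 erythroid markers was 17551 to 21087 in TAK1-deleted cells at 0 h and 6081 to 6209 in wild type cells at 0 h. At 24 h the sum of 12 monocyte or macrophage markers was 21489 to 24020 in TAK1-deleted cells, against 6429 to 7072 in wild type cells, and that of 10 neutrophil markers was 8854 to 9185, against 1934 to 1939. In bulk RNA of this kind, fewer cells of a type and less RNA per cell cannot be told apart. Arrays with the same replicate number deviated from their group means together, so values with the replicate number as a block stand beside a result where the block changes it.

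Most members were higher after 24 h of anti-IgM than at 0 h, in both genotypes. In TAK1-deleted cells 51 of the 85 tested members rose at 24 h and 2 fell, beside 14.9% of all tested genes that rose and 12.7% that fell. In wild type cells 62 rose and 1 fell, beside 23.6% of all tested genes that rose and 20.2% that fell. Calls were made with limma at a Benjamini-Hochberg adjusted p below 0.05 over all tested genes. The median change of the 85 members was 0.45 in TAK1-deleted cells (1.37-fold) and 0.63 in wild type cells (1.54-fold) on the log2 scale, while the median over all tested genes was 0.04 in TAK1-deleted and 0.07 in wild type cells. Within replicate numbers 1 and 2 the members' median was 0.46 and 0.38 in TAK1-deleted cells, and 0.72 and 0.48 in wild type cells. The change lay above 0 in 77 of the 85 members in TAK1-deleted cells and in 80 in wild type cells. Genes of other cells and of division moved in the same comparisons. In TAK1-deleted cells 9 of 9 NK cell, 4 of 9 T cell, 6 of 12 monocyte or macrophage, 3 of 10 neutrophil and 10 of 10 erythroid markers fell at 24 h, and 1 T cell, 2 monocyte or macrophage and 1 neutrophil marker rose. The wild type falls were 9 of 9 NK cell, 9 of 9 T cell, 12 of 12 monocyte or macrophage, 9 of 10 neutrophil and 4 of 10 erythroid markers. Of 17 G2/M genes, 1 rose and 5 fell in TAK1-deleted cells, with sums of 9382 to 10689 at 24 h against 12048 to 15212 at 0 h, and 16 rose in wild type cells, with 17646 to 21478 at 24 h against 7661 to 8141 at 0 h. The T cell sum was 5078 to 5154 at 24 h against 5579 to 7400 at 0 h in TAK1-deleted cells, and 3126 to 3318 against 9619 to 12600 in wild type cells. The NK cell sum was 1200 to 1244 at 24 h against 3163 to 3745 at 0 h in TAK1-deleted cells, and 1093 to 1123 against 6550 to 7639 in wild type cells. The part of these genes' cells in the members' rise was not tested. Of the members that rose, 48 did so in both genotypes, which is 94.1% of the TAK1-deleted list and 77.4% of the wild type list. The same overlap was not taken over all tested genes, so it is not read as a trait of the members. The wild type count kept between 45 and 60 calls when any 1 of its 4 arrays was left out. The TAK1-deleted count dropped to 21 without the 24 h replicate 1 array, to 31 without the 0 h replicate 2 array and to 32 without the 0 h replicate 1 array.

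**Figure D1:**
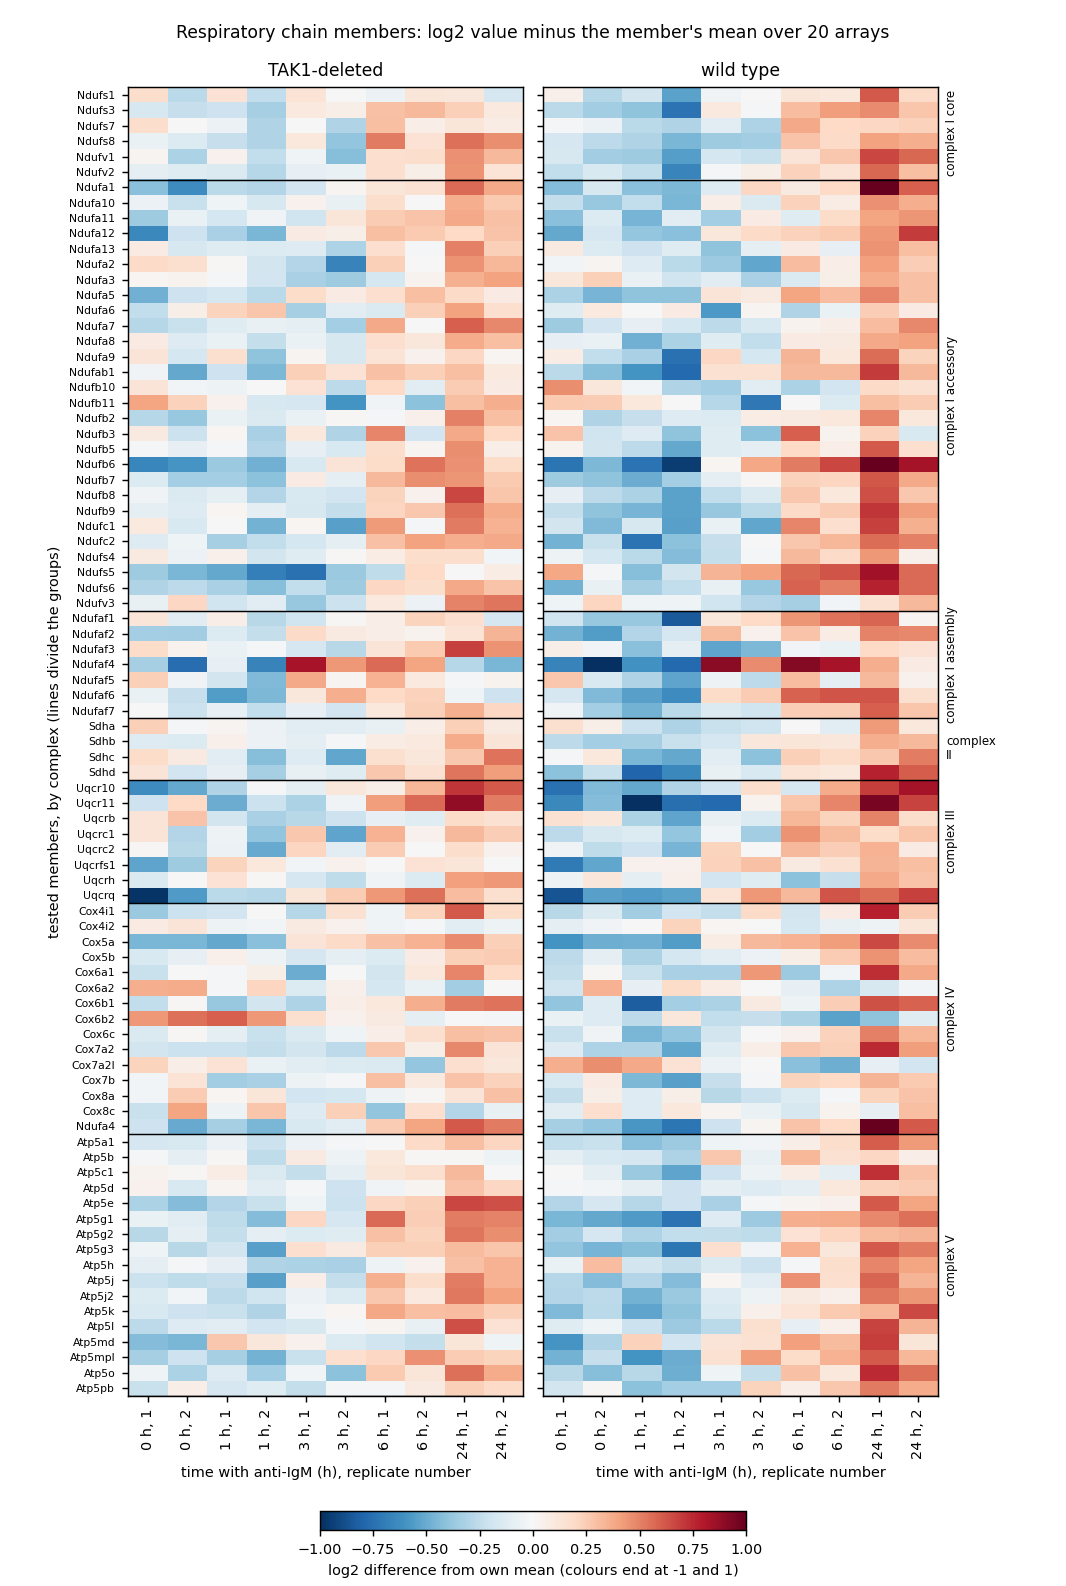
Each row is 1 of the 85 tested members, grouped by complex, and each column 1 array, with TAK1-deleted arrays left and wild type arrays right; colour gives the log2 value minus that member's mean over the 20 arrays. The 24 h columns are warm for most rows of every complex in both genotypes, and the columns of 0, 1 and 3 h are colder, with the lowest array medians in wild type cells at 1 h (-0.31 and -0.38).

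Few members had risen at 1 h. In TAK1-deleted cells 3 rose and 2 fell at 1 h, beside 9.1% of all tested genes that rose and 10.2% that fell, and the median change of the members was -0.08. In wild type cells 1 rose and 6 fell at 1 h, beside 10.6% and 13.9% of all tested genes, and the members' median was -0.16. With the replicate block the 1 h counts became 4 risen and 9 fallen in TAK1-deleted cells, against 15.1% and 21.2% of all genes, and 3 risen and 21 fallen in wild type cells, against 17.2% and 26.1% of all genes. Centring the arrays changed the 1 h split to 2 risen and 1 fallen in TAK1-deleted cells and 2 and 5 in wild type cells, and quantile normalization gave 2 and 4 in TAK1-deleted cells. Without any 1 of its 4 arrays the TAK1-deleted count at 1 h was 2 or 3. Over the 5 times, the lowest group mean stood at 1 h for 40 of the 85 members in TAK1-deleted cells and for 60 in wild type cells, where 23% and 24.7% of all tested genes had their lowest mean.

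At 3 h the members split. In TAK1-deleted cells 11 rose and 6 fell, beside 19.6% and 22.1% of all tested genes, and in wild type cells 16 rose and 7 fell, beside 20.9% and 23.2%. Without the block the members' shares were below those of all genes. With the replicate block 15 rose and 14 fell in TAK1-deleted cells, and 27 rose and 11 fell in wild type cells, beside 27.4% and 28.9% of all genes in TAK1-deleted cells and 28.8% and 30.1% in wild type cells, so that the wild type share of rises then lay above that of all genes. Arrays centred on their median gave 15 risen and 4 fallen in TAK1-deleted cells, and 25 and 6 in wild type cells. The TAK1-deleted total of 17 dropped to 8 without the 3 h replicate 2 array and to 11 without the 0 h replicate 1 array, and the wild type total of 23 dropped to 15 without the 3 h or the 0 h replicate 2 array. By 6 h 29 members had risen and 5 had fallen in TAK1-deleted cells, beside 18.5% and 17.3% of all tested genes, while 45 had risen and 3 had fallen in wild type cells, beside 24.1% and 19.1%. The members' median change at 6 h was 0.23 in TAK1-deleted cells and 0.36 in wild type cells. Leaving out any 1 of the 4 TAK1-deleted arrays lowered that count to between 19 and 22, and the wild type count was 30 without the 6 h replicate 1 array.

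Between 6 h and 24 h most members did not pass the test. In TAK1-deleted cells 6 rose and 1 fell from 6 h to 24 h, beside 10.8% and 8.05% of all tested genes, with a median of 0.17. In wild type cells 13 rose and 0 fell, beside 9.02% and 10.4%, with a median of 0.25. With the replicate block the counts were 23 risen and 1 fallen in TAK1-deleted cells, beside 17.7% and 17.9% of all genes, and 39 and 1 in wild type cells, beside 15.7% and 22.4%. The TAK1-deleted total of 7 dropped to between 2 and 4 when any 1 of its arrays was left out, and the wild type total of 13 dropped to 2, 4 and 7 without 24 h replicate 1, 6 h replicate 1 and 6 h replicate 2. Uqcrh, the hinge protein of complex III, was the only member called in this step with each array left out in both genotypes. The highest group mean stood at 24 h for 59 members in TAK1-deleted cells and for 71 in wild type cells, where 22.3% and 23.5% of all tested genes had theirs.

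**Figure D2:**
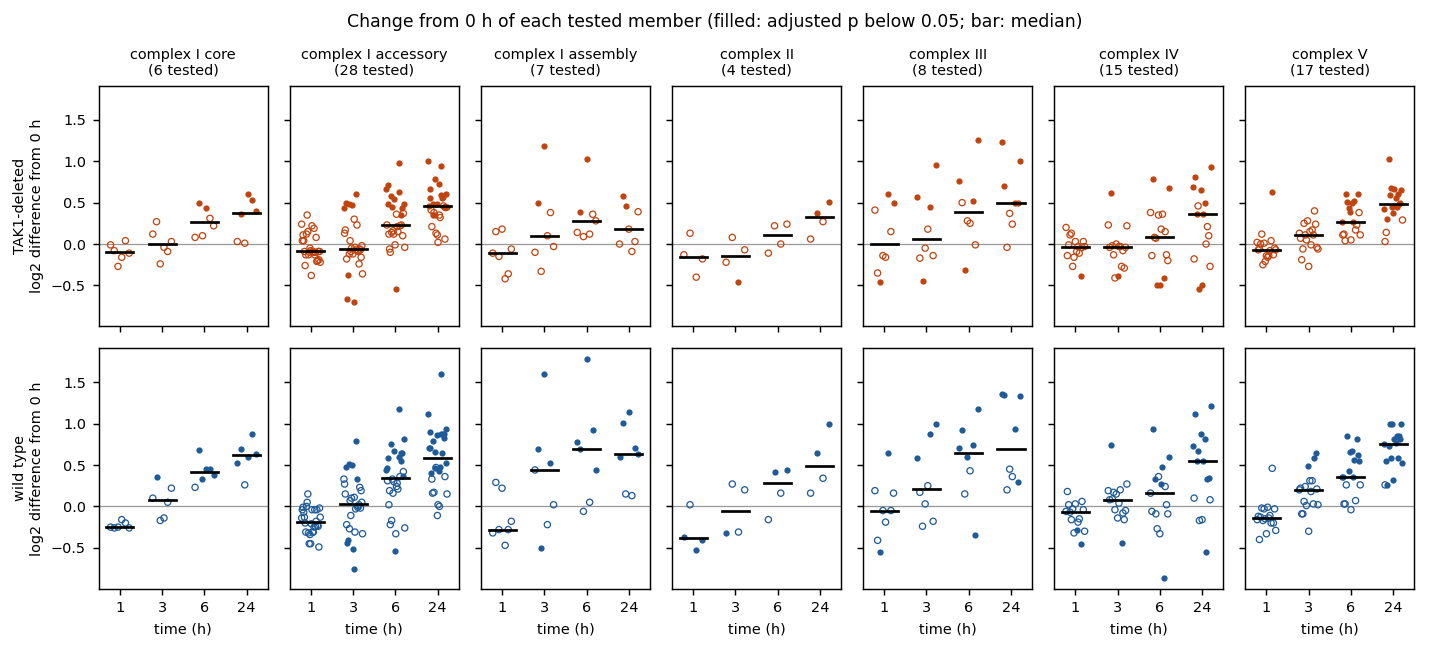
Each point is the log2 change from 0 h of 1 tested member at 1, 3, 6 or 24 h, by complex, with TAK1-deleted cells in the upper row and wild type cells in the lower row; filled points were called at an adjusted p below 0.05 and bars are medians. The medians at 24 h lie above 0 in all 7 groups of both rows, and that of complex I assembly factors is 0.18 in TAK1-deleted cells and 0.63 in wild type cells.

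Complex I is the largest complex of the chain, with core subunits that carry the electron path and accessory subunits that surround it. Of its 6 tested nuclear core subunits, 4 rose at 24 h in TAK1-deleted cells and 5 in wild type cells, with medians of 0.38 and 0.62. Ndufv1, which binds NADH and the flavin, read 10.67 and 10.54 at 24 h in TAK1-deleted cells, against 10.24 and 9.9 at 0 h, and rose by 0.53 ± 0.16 (SE; adjusted p = 0.0173). Wild type cells gave Ndufv1 values of 10.88 and 10.79 at 24 h, against 10.05 and 9.87 at 0 h, and rose by 0.87 ± 0.16 (adjusted p = 0.000259). The 24 h arrays lay above the 0 h arrays in both genotypes, and the TAK1-deleted call was lost without 24 h replicate 1 or 0 h replicate 2. Ndufs8, an iron-sulphur subunit, rose by 0.61 ± 0.15 in TAK1-deleted cells and by 0.60 ± 0.15 in wild type cells, with adjusted p-values of 0.00514 and 0.0034. Ndufs3, another core subunit, rose by 0.36 ± 0.12 in TAK1-deleted cells (adjusted p = 0.0344), a call lost without any 1 of the 4 arrays, and by 0.69 ± 0.12 in wild type cells (adjusted p = 0.000229).

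Of the 28 accessory subunits, 17 rose at 24 h in TAK1-deleted cells and 19 in wild type cells, and 0 fell in either. Ndufb6, a subunit of the membrane arm, had the largest wild type rise of all members at 24 h. At 6 h the largest wild type rise was that of Ndufaf4, at 1.78. In TAK1-deleted cells Ndufb6 read 10.06 and 10.12 at 0 h, 10.34 and 10.23 at 1 h, 10.56 and 10.84 at 3 h, 10.89 and 11.25 at 6 h, then 11.17 and 10.89 at 24 h. Wild type values of Ndufb6 were 9.98 and 10.26 at 0 h, 9.97 and 9.76 at 1 h, 10.73 and 11.1 at 3 h, 11.23 and 11.38 at 6 h, then 11.9 and 11.54 at 24 h. The TAK1-deleted values levelled off between 6 h and 24 h, while both wild type arrays at 24 h lay above every other Ndufb6 reading. The change at 24 h was 0.94 ± 0.18 in TAK1-deleted cells (adjusted p = 0.000836) and 1.60 ± 0.18 in wild type cells (adjusted p = 2.44e-06). Ndufa1, a small X-linked accessory subunit, read 8.66 and 8.47 at 24 h in TAK1-deleted cells, against 7.67 and 7.46 at 0 h, and 9.14 and 8.69 in wild type cells at 24 h, against 7.66 and 7.93 at 0 h. The groups did not overlap, and Ndufa1 rose by 1.00 ± 0.16 in TAK1-deleted cells (adjusted p = 0.000214) and by 1.12 ± 0.16 in wild type cells (adjusted p = 3.6e-05). Not all accessory subunits followed. Ndufb11, another membrane arm subunit, fell at 3 h, by 0.70 ± 0.16 in TAK1-deleted cells (adjusted p = 0.00284) and by 0.76 ± 0.16 in wild type cells (adjusted p = 0.0013), and was not called at 24 h in either, at 0.02 in each. Its brightest probe set is numbered among those of another chromosome; the one in its own place gave -0.70 at 3 h and 0.28 at 24 h in TAK1-deleted cells (adjusted p = 0.00483 and 0.283), and -0.67 at 3 h and -0.06 at 24 h in wild type cells (adjusted p = 0.00611 and 0.817). The TAK1-deleted call for Ndufb11 at 3 h was lost without the 3 h replicate 2 array. Ndufa2 fell at 3 h as well, by 0.66 ± 0.15 in TAK1-deleted cells (adjusted p = 0.00179) and by 0.44 ± 0.15 in wild type cells (adjusted p = 0.0239), the second call being lost without 3 h replicate 2 or either 0 h array. Ndufb10 fell at 3 h in wild type cells, by 0.51 (adjusted p = 0.0192), a call lost without the 0 h or the 3 h replicate 1 array.

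**Figure D3:**
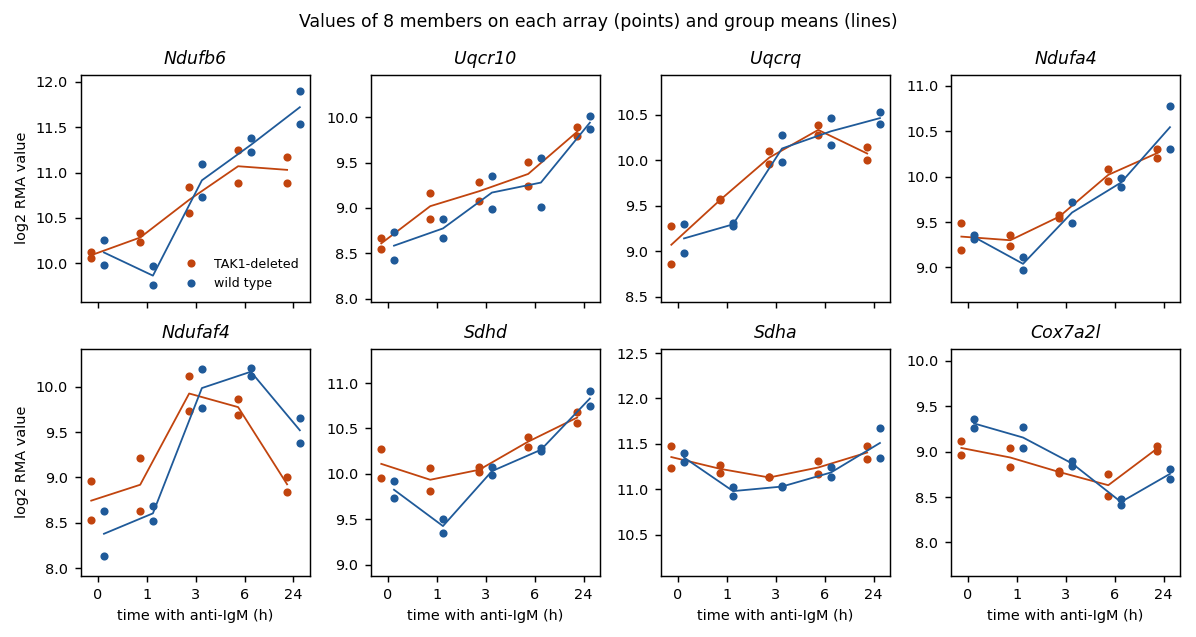
Log2 values of 8 members at each time with anti-IgM, with 1 point per array and a line through the group means, TAK1-deleted in orange and wild type in blue; time points are evenly spaced. Ndufb6 and Ndufaf4 are lower in TAK1-deleted cells at 24 h in every array, while Uqcr10 runs close in the 2 genotypes and Cox7a2l dips at 6 h.

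The 7 complex I assembly factors help build the complex and do not stay in it. Of the 7, 2 rose at each of 3, 6 and 24 h in TAK1-deleted cells, beside 19.6%, 18.5% and 14.9% of all tested genes. For wild type cells the counts were 3 risen and 1 fallen at 3 h, beside 20.9% and 23.2% of all tested genes. At 6 h and at 24 h 5 rose in wild type cells, beside 24.1% and 23.6%. With so few genes, the counts at 3 h are not read as a trait of the group. Ndufaf4 had the largest change of all members at 3 h in both genotypes. In TAK1-deleted cells Ndufaf4 read 8.96 and 8.53 at 0 h, 9.21 and 8.63 at 1 h, 10.12 and 9.73 at 3 h, 9.86 and 9.69 at 6 h, then 9.01 and 8.84 at 24 h. Wild type values of Ndufaf4 were 8.63 and 8.13 at 0 h, 8.69 and 8.52 at 1 h, 10.2 and 9.77 at 3 h, 10.21 and 10.12 at 6 h, then 9.66 and 9.38 at 24 h. All arrays of 3 h and 6 h lay above all those of 0 h and 1 h, and at 24 h the TAK1-deleted arrays were back among the early readings while the wild type arrays stayed above them. Ndufaf4 rose by 1.18 ± 0.22 at 3 h in TAK1-deleted cells (adjusted p = 0.000494) and by 1.60 ± 0.22 in wild type cells (adjusted p = 2.54e-05). At 24 h it gave 0.18 ± 0.22 in TAK1-deleted cells (adjusted p = 0.618) and rose by 1.14 ± 0.22 in wild type cells (adjusted p = 0.000603). From 6 h to 24 h it fell by 0.85 in TAK1-deleted cells (adjusted p = 0.0138), a call lost without the 6 h replicate 1 or the 24 h replicate 2 array. Ndufaf2, a chaperone of late complex I assembly, rose at 24 h by 0.58 ± 0.13 in TAK1-deleted cells (adjusted p = 0.0025) and by 1.01 ± 0.13 in wild type cells (adjusted p = 8.04e-06), with each array left out. Ndufaf6 rose at 24 h by 0.71 ± 0.15 in wild type cells (adjusted p = 0.00123) and gave 0.03 ± 0.15 in TAK1-deleted cells (adjusted p = 0.926). Ndufaf3 rose by 0.46 ± 0.13 in TAK1-deleted cells (adjusted p = 0.0143) beside 0.15 ± 0.13 in wild type cells (adjusted p = 0.376), and the call was lost without TAK1-deleted 24 h replicate 1 or 0 h replicate 2.

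Complex II, or succinate dehydrogenase, also works in the tricarboxylic acid cycle and is wholly encoded in the nucleus. Of its 4 subunits, 2 rose at 24 h in each genotype and 0 fell. Sdhd, a membrane anchor, read 10.68 and 10.56 at 24 h in TAK1-deleted cells, against 10.27 and 9.95 at 0 h, and rose by 0.51 ± 0.14 (adjusted p = 0.0105). Wild type Sdhd values were 10.91 and 10.75 at 24 h, against 9.73 and 9.92 at 0 h, and rose by 1.00 ± 0.14 (adjusted p = 1.92e-05). The wild type call held with each array left out, and the TAK1-deleted call was lost without 24 h replicate 1 or 0 h replicate 2. Sdhb, the iron-sulphur subunit, rose at 24 h by 0.38 ± 0.12 in TAK1-deleted cells (adjusted p = 0.0248) and by 0.64 ± 0.12 in wild type cells (adjusted p = 0.000381). The TAK1-deleted call of Sdhb was lost without either 0 h array or 24 h replicate 1. Sdha, the flavoprotein that holds the active site, read 11.48 and 11.33 at 24 h in TAK1-deleted cells, against 11.48 and 11.23 at 0 h, and 11.67 and 11.35 in wild type cells at 24 h, against 11.4 and 11.3 at 0 h. Those groups overlapped, and neither change was called, at 0.06 ± 0.12 in TAK1-deleted cells (adjusted p = 0.794) and 0.16 ± 0.12 in wild type cells (adjusted p = 0.331). Sdhc, the other anchor, was not called at 24 h, at 0.27 ± 0.16 in TAK1-deleted cells (adjusted p = 0.228) and 0.34 ± 0.16 in wild type cells (adjusted p = 0.0885). With the replicate block its wild type change at 24 h was called (adjusted p = 0.0309). At 1 h in wild type cells Sdhc fell by 0.53, Sdhd by 0.40 and Sdha by 0.37, with adjusted p-values of 0.0192, 0.0404 and 0.0385, and each of these calls was lost when any 1 of the 4 arrays was left out.

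Complex III held 3 of the 4 largest wild type rises at 24 h. Of its 8 subunits, 5 rose at 24 h in each genotype and 0 fell, with medians of 0.50 in TAK1-deleted cells and 0.69 in wild type cells. Uqcr10, a small subunit, read 8.55 and 8.67 at 0 h, 8.88 and 9.16 at 1 h, 9.08 and 9.29 at 3 h, 9.24 and 9.51 at 6 h, then 9.89 and 9.79 at 24 h in TAK1-deleted cells. Wild type values of Uqcr10 were 8.43 and 8.74 at 0 h, 8.67 and 8.88 at 1 h, 8.99 and 9.35 at 3 h, 9.01 and 9.55 at 6 h, then 9.87 and 10.01 at 24 h. The 24 h arrays were the highest in both genotypes. At 24 h Uqcr10 rose by 1.23 ± 0.19 in TAK1-deleted cells (adjusted p = 0.000131), the largest rise of any member there at that time. In wild type cells Uqcr10 rose by 1.36 ± 0.19 (adjusted p = 2.34e-05). Uqcrq, another small subunit, rose early and stayed high, by 0.96 ± 0.16 at 3 h and 1.00 ± 0.16 at 24 h in TAK1-deleted cells, and by 0.99 ± 0.16 at 3 h and 1.33 ± 0.16 at 24 h in wild type cells (adjusted p from 0.000209 to 6.16e-06). Uqcr11 read 10.93 and 10.56 at 24 h in TAK1-deleted cells, against 9.84 and 10.24 at 0 h, and 10.99 and 10.72 in wild type cells at 24 h, against 9.4 and 9.61 at 0 h. The rise of 0.70 ± 0.24 in TAK1-deleted cells (adjusted p = 0.0373) was lost with no filter, with arrays centred on their median, with quantile normalization, and without 0 h or 24 h replicate 1, and that of 1.35 ± 0.24 in wild type cells (adjusted p = 0.000229) held. Uqcrfs1, the Rieske iron-sulphur protein, had risen by 1 h. At 1 h it read 9.49 and 9.37 in TAK1-deleted cells, against 8.74 and 8.91 at 0 h, and 9.31 and 9.31 in wild type cells, against 8.56 and 8.75 at 0 h. It was the only member called upwards at 1 h in both genotypes, by 0.60 ± 0.12 in TAK1-deleted cells (adjusted p = 0.00136) and 0.65 ± 0.12 in wild type cells (adjusted p = 0.000592), with each array left out. Uqcrb, a coenzyme Q binding subunit, moved the opposite way at 1 h and fell by 0.46 ± 0.11 in TAK1-deleted cells (adjusted p = 0.00675) and by 0.55 ± 0.11 in wild type cells (adjusted p = 0.00153). The TAK1-deleted call of Uqcrb was lost without 0 h or 1 h replicate 2. The large core proteins Uqcrc1 and Uqcrc2 were not called at 24 h without the block, at 0.37 and 0.24 in TAK1-deleted cells and 0.45 and 0.36 in wild type cells. With the block both were called in both genotypes, with adjusted p-values of 0.0387 and 0.019 in TAK1-deleted cells and of 0.0104 and 0.000558 in wild type cells.

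Complex IV has isoforms that are known to be used in different tissues. Of 15 tested members, 7 rose and 2 fell at 24 h in TAK1-deleted cells, and 10 rose and 1 fell in wild type cells. Ndufa4, named after complex I and now placed in complex IV, read 10.31 and 10.21 at 24 h in TAK1-deleted cells, against 9.49 and 9.19 at 0 h, and rose by 0.93 ± 0.15 (adjusted p = 0.000259). Wild type Ndufa4 values were 10.78 and 10.31 at 24 h, against 9.36 and 9.31 at 0 h, and rose by 1.21 ± 0.15 (adjusted p = 9e-06). The groups did not overlap in either genotype. Cox5a, a matrix-side subunit, had risen by 3 h and at 24 h stood 0.81 ± 0.12 above 0 h in TAK1-deleted cells (adjusted p = 9.1e-05) and 1.11 ± 0.12 in wild type cells (adjusted p = 1.77e-06). Of the paired isoforms, the ubiquitous Cox4i1 rose at 24 h by 0.69 ± 0.21 in TAK1-deleted cells (adjusted p = 0.0214) and by 0.73 ± 0.21 in wild type cells (adjusted p = 0.01), each call lost without replicate 1 of 0 h or of 24 h. Cox4i2, the isoform known from lung and low oxygen, gave -0.18 ± 0.11 in TAK1-deleted cells (adjusted p = 0.256) and 0.10 ± 0.11 in wild type cells (adjusted p = 0.491). Cox6a2, the heart and muscle isoform, read 8.12 and 8.47 at 24 h in TAK1-deleted cells, against 8.83 and 8.84 at 0 h, and 8.31 and 8.44 in wild type cells at 24 h, against 8.27 and 8.82 at 0 h. It fell by 0.54 ± 0.17 in TAK1-deleted cells (adjusted p = 0.0315) and was not called in wild type cells, at -0.17 ± 0.17 (adjusted p = 0.469). Cox6b2, known as a testis isoform, read 7.29 and 7.27 at 24 h in TAK1-deleted cells, against 7.72 and 7.84 at 0 h, and fell by 0.50 ± 0.14 (adjusted p = 0.0154). Wild type Cox6b2 values were 6.89 and 7.17 at 24 h, against 7.22 and 7.16 at 0 h, a change of -0.16 ± 0.14 (adjusted p = 0.411). Both falls lost their call with arrays centred on their median, and without TAK1-deleted 24 h replicate 1 or 0 h replicate 2. Quantile normalization or leaving out 0 h replicate 1 also ended the call of Cox6a2, and leaving out 24 h replicate 2 that of Cox6b2. Cox6b2 reached the filter level of 7.45 only on the TAK1-deleted arrays of 0 h and 1 h. Its fall from 0 h to 24 h is therefore not independent of the filter, and its 24 h readings lie under that level. The erythroid marker sum fell over the same interval, to 1482 to 1537 at 24 h in TAK1-deleted cells. Its part in the falls of Cox6a2 and Cox6b2 was not tested. The restricted isoforms Cox7a1, Cox7b2 and Cox8b, and Ndufa4l2, never exceeded 7.46 on any array.

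Cox7a2l, described as a factor that joins complexes III and IV in supercomplexes, was the only member that fell at 24 h in wild type cells. Whether it does so in the cells of these mice was not measured. In TAK1-deleted cells Cox7a2l read 9.12 and 8.96 at 0 h, 9.04 and 8.83 at 1 h, 8.79 and 8.76 at 3 h, 8.75 and 8.51 at 6 h, then 9.06 and 9.01 at 24 h. Wild type values were 9.26 and 9.36 at 0 h, 9.27 and 9.04 at 1 h, 8.84 and 8.9 at 3 h, 8.48 and 8.41 at 6 h, then 8.81 and 8.7 at 24 h. Both genotypes were lowest at 6 h, and at 24 h the TAK1-deleted arrays were back within their 0 h range while the wild type arrays were still below theirs. At 6 h it fell by 0.41 ± 0.13 in TAK1-deleted cells (adjusted p = 0.0176; lost without 0 h replicate 1 or 6 h replicate 2) and by 0.86 ± 0.13 in wild type cells (adjusted p = 4.13e-05). At 24 h it gave 0.00 ± 0.13 in TAK1-deleted cells (adjusted p = 0.987) and fell by 0.55 ± 0.13 in wild type cells (adjusted p = 0.0021). Its brightest probe set is numbered among probe sets of another chromosome. With the other probe set, numbered among those of its own chromosome, the wild type falls were 0.64 at 6 h and 0.42 at 24 h (adjusted p = 0.00332 and 0.0382), and the TAK1-deleted change at 6 h was -0.13 (adjusted p = 0.586).

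ATP synthase makes the ATP, and most of its members rose. Of its 17 members, 14 rose at 24 h in TAK1-deleted cells and 16 in wild type cells, 0 fell in either, and the medians were 0.48 and 0.75. Atp5g1, Atp5g2 and Atp5g3 encode the same rotor ring subunit with different import sequences. Atp5g3 read 12.22 and 12.18 at 24 h in TAK1-deleted cells, against 11.86 and 11.63 at 0 h, and 12.52 and 12.42 in wild type cells at 24 h, against 11.51 and 11.44 at 0 h. It rose by 0.45 ± 0.13 in TAK1-deleted cells (adjusted p = 0.0203; lost without either 24 h array or 0 h replicate 2) and by 0.99 ± 0.13 in wild type cells (adjusted p = 1.93e-05). Atp5g1 rose by 0.59 ± 0.13 in TAK1-deleted cells and by 1.00 ± 0.13 in wild type cells (adjusted p = 0.00289 and 1.35e-05), and Atp5g2 by 0.68 ± 0.09 and 0.58 ± 0.09 (adjusted p = 2.35e-05 and 4.78e-05). The Atp5g1 group means were 12.02 in TAK1-deleted and 11.63 in wild type cells at 0 h, then 12.61 and 12.63 at 24 h. Atp5o, the stalk subunit that confers oligomycin sensitivity, rose by 0.65 ± 0.16 in TAK1-deleted cells (adjusted p = 0.00576; lost without 24 h replicate 1 or 0 h replicate 2) and by 1.00 ± 0.16 in wild type cells (adjusted p = 7.7e-05). Atp5e, the epsilon subunit of the central stalk, read 10.17 and 10.15 at 24 h in TAK1-deleted cells, against 9.19 and 9.07 at 0 h, and 10.12 and 9.9 in wild type cells at 24 h, against 9.21 and 9.34 at 0 h. Its rise was 1.03 ± 0.13 in TAK1-deleted cells (adjusted p = 1.65e-05) and 0.73 ± 0.13 in wild type cells (adjusted p = 0.000222). Of the catalytic pair, Atp5a1 (alpha) rose by 0.42 ± 0.10 in TAK1-deleted cells and 0.75 ± 0.10 in wild type cells (adjusted p = 0.00453 and 1.47e-05), the first call being lost without 24 h replicate 1. Atp5b (beta) was not called, at 0.03 ± 0.11 in TAK1-deleted cells (adjusted p = 0.899) and 0.26 ± 0.11 in wild type cells (adjusted p = 0.0719), and with the replicate block the wild type change of Atp5b was called (adjusted p = 0.00194).

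The genotypes were then set against each other at each time. At 0 h 1 member was higher in TAK1-deleted cells and 0 were lower, beside 1.5% and 0.819% of all tested genes. At 1 h 3 were higher and 0 lower, beside 2.07% and 2.21%, at 3 h 0 were higher and 1 lower, beside 1% and 1.7%, and at 6 h 0 were higher and 0 lower, beside 0.927% and 1.6%, with 6 at an unadjusted p below 0.05. At 24 h 0 were higher and 3 lower, beside 7.04% and 5.18% of all tested genes. The members' shares lie close to or under those of all genes. The called members were Cox6b2 at 0 h (0.59 ± 0.14, adjusted p = 0.0389), Cox6b2, Sdhd and Ndufb9 at 1 h (0.59, 0.51 and 0.47; adjusted p = 0.0249, 0.0458 and 0.0358), Ndufs5 at 3 h (-0.93 ± 0.18, adjusted p = 0.00715), and Ndufb6, Ndufs5 and Ndufaf6 at 24 h (-0.68, -0.67 and -0.52; adjusted p = 0.0187, 0.0205 and 0.0338). None of these calls held with each array left out. In TAK1-deleted cells Ndufs5 read 6.89 and 7.26 at 3 h, and Ndufaf6 read 7.37 and 7.2 at 24 h. Those readings lie under the filter level of 7.45, so these calls compare against dim values. Cox6b2 reached the filter level of 7.45 on 4 arrays only, the TAK1-deleted arrays of 0 h and 1 h. Its highest wild type reading was 7.4. It entered the test through the groups where it is high, so its calls at 0 h and 1 h are not independent of the filter. The count of called members was 0 without any 1 array at 0 h, 0 or 1 at 1 h (1 without wild type replicate 2), and 0 at 3 h except without TAK1-deleted replicate 2. At 24 h it was 0 without wild type replicate 1 or TAK1-deleted replicate 2, 1 without TAK1-deleted replicate 1, and 5 without wild type replicate 2. Quantile normalization gave 1 higher and 6 lower at 24 h. Ndufb6, Ndufs5 and Ndufaf6 all lie on chromosome 4, as do Ndufaf4, Sdhb and Uqcrh, which were not called between genotypes without the block. The probe set of Map3k7, the targeted gene, is numbered close to that of Ndufaf4. The part of sequence linked to the targeted gene in these differences was not tested, and it cannot be told apart from loss of TAK1.

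With the replicate block the genotype counts were larger. At 0 h 2 members were higher and 1 lower in TAK1-deleted cells, beside 4.1% and 2.89% of all genes. At 1 h 14 were higher and 0 lower, beside 7.19% and 5.72%, and at 6 h 1 was higher and 4 lower, beside 4.34% and 7.85%. At 24 h 2 were higher and 14 lower, beside 14.7% and 14.1% of all genes. The median difference between the genotypes was 0.17 at 1 h, with 77 of the 85 members above 0, where the median of all tested genes was 0.03. At 24 h it was -0.12, with 19 members above 0, and the median of all tested genes was 0. With 2 arrays a group the genotypes often fail to overlap by array. They did not overlap for 32, 44, 20, 31 and 42 members at 0, 1, 3, 6 and 24 h, which is 37.6%, 51.8%, 23.5%, 36.5% and 49.4% of them, beside 25.6%, 33.4%, 33.3%, 52.7% and 51% of all tested genes. At 1 h 40 of the 44 were higher in TAK1-deleted cells (47.1% of members, 20.5% of all genes), and at 24 h 34 of the 42 were lower (40% of members, 23.9% of all genes). Ndufs5, an accessory subunit of complex I, read 7.63 and 7.71 at 24 h in TAK1-deleted cells and 8.47 and 8.2 in wild type cells, and at 0 h it read 7.28 and 7.18 in TAK1-deleted cells, against 8.02 and 7.62 in wild type cells. Sdhd at 1 h read 10.06 and 9.81 in TAK1-deleted cells and 9.35 and 9.5 in wild type cells. Other markers moved with the early differences. At 1 h 10 of 10 erythroid markers were higher in TAK1-deleted cells, with a sum of 16458 to 20163 against 5944 to 6121 in wild type cells, and 9 of 17 G2/M genes were higher, with a sum of 11260 to 14724 against 7076 to 8034. At 1 h 8 of 9 NK cell markers were lower in TAK1-deleted cells, with a sum of 2800 to 3563 against 6981 to 8743, and 6 of 9 T cell markers were lower, with a sum of 5180 to 6684 against 10937 to 13924 (9 of 9 of each with the block). At 24 h 16 of 17 G2/M genes were lower in TAK1-deleted cells at 24 h, with a sum of 9382 to 10689 against 17646 to 21478, and 11 of 12 monocyte or macrophage and 10 of 10 neutrophil markers were higher. The part of these cells and of division in the members' values was not tested.

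**Figure D4:**
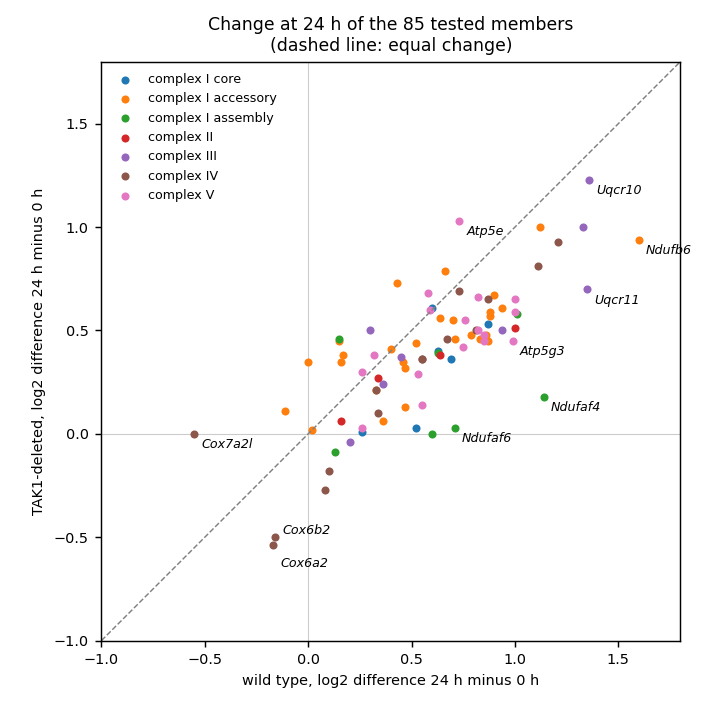
Each point is 1 of the 85 tested members, with its log2 change from 0 h to 24 h in TAK1-deleted cells on the vertical axis and in wild type cells on the horizontal axis, coloured by complex; the dashed line marks equal change. Most points lie above 0 on both axes and below the dashed line, with Ndufaf4, Ndufaf6, Uqcr11 and Ndufb6 far below it and Cox7a2l above it.

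Whether the change itself differed between genotypes was tested as the TAK1-deleted change minus the wild type change. Without the block 0 members were called in this difference at 1, 3, 6 or 24 h, beside 0.109%, 0.0585%, 0.284% and 8.66% of all tested genes, and 0, 1, 8 and 13 members had an unadjusted p below 0.05. The median of the members was -0.24 at 24 h, -0.26 and -0.18 within replicates 1 and 2, and 17 of the 85 lay above 0, where 48.3% of all tested genes did. With the replicate block 1 member was higher and 9 were lower at 24 h, beside 11.1% and 10.9% of all genes, so the members' share lay under that of all genes in each direction. Centred arrays gave 1 higher and 2 lower, and quantile normalization 1 and 3. In the blocked fit Ndufaf4 changed by 0.96 less in TAK1-deleted cells (-0.96 ± 0.16, adjusted p = 0.000229; 0.0779 without the block), and its difference was -0.99 and -0.94 within the 2 replicate numbers. Atp5g3 followed at -0.54 (adjusted p = 0.00262), Ndufc2 at -0.42 (0.0116), Ndufaf6 at -0.68 (0.0152), Sdhd at -0.49 (0.0277), Uqcrfs1 at -0.43 (0.0321) and Ndufb6 at -0.66 (0.0347). Atp5o gave -0.36 (0.0327) and Atp5g1 -0.41 (0.0342). At 0 h the TAK1-deleted group mean was above the wild type mean for all of these but Ndufb6 (10.09 against 10.12). The 0 h means were 11.75 against 11.48 for Atp5g3, 12.35 against 12.1 for Ndufc2, 10.11 against 9.83 for Sdhd and 12.02 against 11.63 for Atp5g1. None was called at 0 h without the block. The difference in change holds this 0 h gap as well as the gap at 24 h. Cox7a2l was the member called upwards, at 0.55 ± 0.15 (adjusted p = 0.00954). From 6 h to 24 h 0 members were called, beside 3.87% of all tested genes, and 1 had an unadjusted p below 0.05. At 6 h the blocked fit called 0 members upwards and 2 downwards, beside 1.81% and 4.64% of all genes, namely Ndufaf4 (-0.75, adjusted p = 0.00859) and Uqcrb (-0.46, adjusted p = 0.0336).

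Other genes of the same pathways were read from related lists. Of 36 tested assembly factors outside the membership rule, 6 rose and 1 fell at 24 h in TAK1-deleted cells, and 15 rose and 1 fell in wild type cells. At 14.9% of all tested genes risen in TAK1-deleted cells and 23.6% in wild type cells, the TAK1-deleted share is near that of all genes. Uqcc2, which helps assemble complex III, rose by 0.99 ± 0.16 in TAK1-deleted cells and 1.31 ± 0.16 in wild type cells (adjusted p = 0.000214 and 6.28e-06). Coa7, a complex IV assembly factor, rose by 0.61 in TAK1-deleted cells and by 1.17 in wild type cells (adjusted p = 0.00559 and 9.22e-06). Dmac2 fell by 0.93 in TAK1-deleted cells and by 0.96 in wild type cells (adjusted p = 0.00352 and 0.00151). The TAK1-deleted calls were lost without 24 h replicate 1 for Coa7 and without 24 h replicate 2 for Dmac2. Of 18 genes of the electron carriers and coenzyme Q synthesis, 4 rose and 1 fell in TAK1-deleted cells, and 9 rose and 1 fell in wild type cells. The gene that fell was Coq8a in both, by 0.83 and 1.09 (adjusted p = 0.000277 and 8.99e-06). Of 16 tricarboxylic acid cycle genes, 3 rose in TAK1-deleted cells and 12 in wild type cells, and 0 fell, the TAK1-deleted share again near that of all genes. Idh3a, a subunit of the NAD-linked isocitrate dehydrogenase, rose by 0.46 ± 0.15 in TAK1-deleted cells and by 1.14 ± 0.15 in wild type cells (adjusted p = 0.0357 and 1.66e-05), the first call being lost without either 24 h array or 0 h replicate 2. Of 16 genes of mitochondrial transcription and biogenesis, 0 rose at 24 h in TAK1-deleted cells and 3 in wild type cells, where 2 fell. Blocked by replicate number, the TAK1-deleted counts were 13 risen and 1 fallen for the assembly factors, 8 and 1 for the carriers, 7 and 0 for the tricarboxylic acid cycle and 0 and 5 for transcription and biogenesis, beside 24.1% risen and 20.6% fallen of all genes. Pprc1, a coactivator of the PGC-1 family, rose by 1.41 ± 0.17 at 3 h in wild type cells (adjusted p = 6.27e-06) and at 24 h was lower by 0.66 ± 0.17 in TAK1-deleted than in wild type cells (adjusted p = 0.0187), a call lost without wild type replicate 1 or either TAK1-deleted array. Tfam, the mitochondrial transcription factor, was not called at 24 h, at -0.49 ± 0.22 in TAK1-deleted cells (adjusted p = 0.123) and -0.19 ± 0.22 in wild type cells (adjusted p = 0.531), and with the replicate block it was called as lower at 24 h in TAK1-deleted cells (adjusted p = 0.0246).

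Subunits encoded in mitochondrial DNA could be read for COX2 of complex IV and ND3 of complex I. COX2 at 24 h read 13.2 and 13.09 in TAK1-deleted cells, against 13.46 and 13.43 at 0 h, and 13.2 and 12.9 in wild type cells, against 13.64 and 13.34 at 0 h. The readings were lower at 24 h in both genotypes. COX2 fell by 0.44 ± 0.14 in wild type cells (adjusted p = 0.0152), a call lost without 0 h replicate 1 or 24 h replicate 2. It was not called in TAK1-deleted cells, at -0.30 ± 0.14 (adjusted p = 0.121), except with the replicate block (adjusted p = 0.0157). ND3 was not called, at -0.02 ± 0.10 in TAK1-deleted cells (adjusted p = 0.899) and -0.15 ± 0.10 in wild type cells (adjusted p = 0.273). The brightest COX2 probe set is numbered among those of chromosome 1, and nuclear copies of mitochondrial sequence were not told apart from the mitochondrial transcript.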

How the data were processed

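The authors deposited log2 values, for which the submitters' processing notes name RMA and version 1.0 of the Affymetrix Expression Console; biotin-labelled total RNA was hybridised, per the labels' protocols, and the genome build is not given in the sources used here. The table of 35556 probe sets, with values of 3.64 to 14.68, was used as deposited. The platform annotation gives 1 symbol to 21789 probe sets and several to 1621, and does not list 12146. Probe sets had to reach the median of all values (7.45) on 2 arrays. Cox6b2 did so only on the TAK1-deleted arrays of 0 h and 1 h. Its TAK1-deleted falls at 3, 6 and 24 h and its calls between genotypes are therefore not independent of this filter. The brightest probe set stood for a gene, which matters for the 17 members with several. For 8 members it is numbered among probe sets of another chromosome, so the probe set in the gene's own place was tried too, an alternative chosen after seeing the data. RMA leaves a background in the values, so differences of dim genes can be understated. The number of arrays limits the precision, with a median standard error of 0.161 for a difference between 2 groups.

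R 4.3.3 and limma 3.58.1 served to fit the group means of all 20 arrays and test contrasts of them by moderated statistics with an intensity trend (10 residual degrees of freedom, prior 5.47), two-sided, with Benjamini-Hochberg adjustment over 11968 genes within each comparison. The fit was tested on simulated data with independent noise on each array and no effect shared by arrays of 1 replicate number. That test therefore does not cover data in which such arrays deviate together, as they do here. Genes are said to have risen or fallen only past an adjusted p of 0.05, and errors are standard errors of the fit. Replicate numbers in the labels were checked for pairing: the differences between replicates 1 and 2 correlated at 0.191 to 0.769 over genes in all 45 pairs of groups, above the threshold of 0.1, so a fit with the number as a block was made too. Other alternatives were the filter, array centring, quantile normalization, the intensity trend, the mean over probe sets, the compared groups alone and leaving out each array. The rule for named genes took the 3 largest rises and falls of each comparison, up to 3 called members per complex and genotype, members called between genotypes, complex II, the paired isoforms, the complex I assembly factors, and up to 3 called genes per related list and direction. Uqcrc1, Uqcrc2, Atp5a1, Atp5b, Ndufc2, Tfam, COX2 and ND3 fall outside that rule and were named after their values were seen. Members, lists and rules were chosen with earlier results of these data known.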

Additional observations from a re-analysis of the deposited data

Results flagged for a closer look

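The array readings of Cox4i2, the lung isoform of a complex IV subunit, lay on opposite sides of their 0 h readings in the genotypes at 1 h, but no change was called. In TAK1-deleted cells it read 7.88 and 7.9 at 1 h, against 8.01 and 8.06 at 0 h, and in wild type cells 7.93 and 8.15 at 1 h, against 7.84 and 7.89 at 0 h, so both arrays lay below 0 h in TAK1-deleted cells and both above it in wild type cells. The difference between the changes was -0.32 ± 0.16 on the log2 scale and was not called (limma, adjusted p = 1), and neither change was called on its own. Cox4i2 was flagged because its values showed this pattern. How often the pattern occurs among all tested genes was not counted. With so few arrays a group, it is not read as a difference between the genotypes.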

How the results depend on the processing

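Of 422 values of named members, 389 kept their side of the threshold under the replicate block and 33 gained a call, and 0 reversed under any alternative run. Over the alternatives 225 of 280 median changes moved by less than the spread between replicates and 55 moved by more. Calls at 24 h against 0 h and at 6 h against 0 h moved by less than 1.5 times under every alternative that kept all arrays. For the other comparisons the totals called were as follows. At 1 h in TAK1-deleted cells (5 members) they were 13 with the replicate block, and 3 with centred arrays or with the compared groups alone; in wild type cells (7) they were 24 with the block, 14 with quantile normalization, 4 with no filter and 2 with the compared groups alone. At 3 h they were 29 with the block and 8 with the compared groups alone in TAK1-deleted cells (17), and 38 with the block in wild type cells (23). Between genotypes at 0 h (1) they were 3 with the block, 2 with quantile normalization and 0 with the stricter filter, centred arrays or the compared groups alone; at 1 h (3) 14 with the block, 1 with no filter and 0 with the compared groups alone; at 3 h (1) 0 with the compared groups alone; at 6 h (0) 5 with the block, 3 with quantile normalization and 1 with centred arrays or the compared groups alone; and at 24 h (3) 16 with the block and 7 with centred arrays or quantile normalization. For the difference in change they were 2 at 6 h with the block, and at 24 h 10 with the block, 4 with quantile normalization and 3 with centred arrays. From 6 h to 24 h they were 24 with the block and 14 with quantile normalization in TAK1-deleted cells (7), and 40, 31, 26 and 25 with the block, quantile normalization, centred arrays and the compared groups alone in wild type cells (13). Fewer arrays in the fit leave fewer degrees of freedom; the cause of the other moves was not tested. With 1 array left out the totals ranged over 15 to 17 at 3 h and 30 to 37 at 6 h in wild type cells, 2 to 3, 8 to 15, 19 to 22 and 21 to 39 at 1, 3, 6 and 24 h in TAK1-deleted cells, 0 to 0, 0 to 1, 0 to 1 and 0 to 5 between genotypes at 0, 1, 3 and 24 h, 0 to 1 for the difference in change at 24 h, and 2 to 4 in TAK1-deleted and 2 to 13 in wild type cells from 6 h to 24 h; the lone array left in a group is assumed to vary like the other groups. The YY1 motif stood in 10 member promoters, or 1 with the 250 bases before the start alone. With 2 arrays a group, differences near the standard error of 0.161 cannot be seen, and a missed threshold does not show that values were equal.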
